A study of Mus musculus with 9 samples.

Results

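TSLP and the receptor chains that carry type 2 cytokine signals were examined in mouse skin after epidermal loss of SPT6, a histone chaperone that travels with RNA polymerase II. The panel held 8 genes, taken by symbol from the 17943 genes of the count table. They are *Tslp*, *Crlf2*, *Il7r*, *Il4ra*, *Il2rg*, *Il13ra1*, *Il13ra2* and *Il31ra*. The rule that picks them uses no measured value, although earlier results of these data were known when the panel was drawn up.

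Skin RNA from 5 control and 4 *Supt6*-KO mice was sequenced at day 10 after the final injection. *Supt6*-KO mice were K14-CreERT; *Supt6* fl/fl animals given tamoxifen. Control mice are labelled wild type and, by the study's methods, were *Supt6* fl/fl animals without Cre that received corn oil. The treatment text in the labels names tamoxifen for every sample, controls included, so the 2 sources differ on what controls received. By the methods the floxed alleles were common to both groups and Cre and tamoxifen were not, and then their own effects cannot be told apart from those of the deletion. The K14 promoter drives Cre in basal keratinocytes, while whole skin was sequenced, so leukocytes and dermal cells kept intact alleles and contributed RNA. The labels name ear as the tissue and the methods name dorsal skin. The paper describes the *Supt6*-KO samples as lesional and the control skin as matched. Ages are not given in the labels, and the methods place the injections in the first telogen phase. Nothing says whether mice shared a litter, so p-values measure the spread between these animals.

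TSLP is an epithelial alarmin that keratinocytes release when the barrier is disturbed. It signals through a heterodimer of its own receptor chain, encoded by *Crlf2*, and the IL-7 receptor alpha chain, encoded by *Il7r*, on dendritic cells, T cells and innate lymphoid cells. T helper 2 cells and group 2 innate lymphoid cells produce IL-4 or IL-13. IL-4 acts on leukocytes through *Il4ra* paired with the common gamma chain *Il2rg*. Both cytokines act on epithelium through *Il4ra* paired with *Il13ra1*. *Il13ra2* encodes a decoy for IL-13, and *Il31ra* pairs with *Osmr* to receive the itch cytokine IL-31.

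Library totals lay between 29627341 and 30967107 estimated counts, a range narrow enough that depth differed little between mice. Composition differed more. The 50 most abundant genes took 16.3 to 17.3% of the counts in controls and 25.2%, 30.4%, 28.9% and 19.8% in *Supt6*-KO mice 1 to 4. Values below are CPM, counts scaled to a library of 1000000 with TMM, a factor for composition, unless named as estimated counts. With 5 and 4 mice, the smallest two-sided exact permutation p is 0.0159.

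The targeted gene followed the labels. *Supt6* had 2786, 2068, 2297, 3370 and 3798 estimated counts in controls 1 to 5 and 684, 503, 478 and 791 in *Supt6*-KO mice 1 to 4. Every *Supt6*-KO mouse lay below every control. Its level was 76.5 ± 17.2 CPM (SD, n = 5) in controls and 25.7 ± 3.31 CPM (SD, n = 4) in *Supt6*-KO skin, a log2 fold change of -1.57 ± 0.18 (SE) with an edgeR adjusted p of 1.3e-05. It was -0.75 after the correction for gene length described below, with an adjusted p of 0.0026, and -2.26 under library totals.

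Of the 8 genes, 4 were higher in *Supt6*-KO skin (*Tslp*, *Il13ra1*, *Il4ra* and *Il13ra2*), 2 were lower (*Il7r* and *Il2rg*), and *Crlf2* and *Il31ra* did not pass edgeR's test at an adjusted p of 0.05. With library totals 2 of the 8 were higher and 3 lower, and with a correction for gene length 3 and 3. Across all 16426 genes tested, 34.1% were higher and 36.8% lower by the same rule, so a call in either direction was common in these data. The median log2 fold change was 0.50 over the 8 genes and -0.07 over all genes tested. In 3 of the 8 every *Supt6*-KO mouse exceeded every control, and in 2 every *Supt6*-KO mouse lay below every control. Among all genes 28.9% and 31.8% were separated in these ways.

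**Figure D1:**
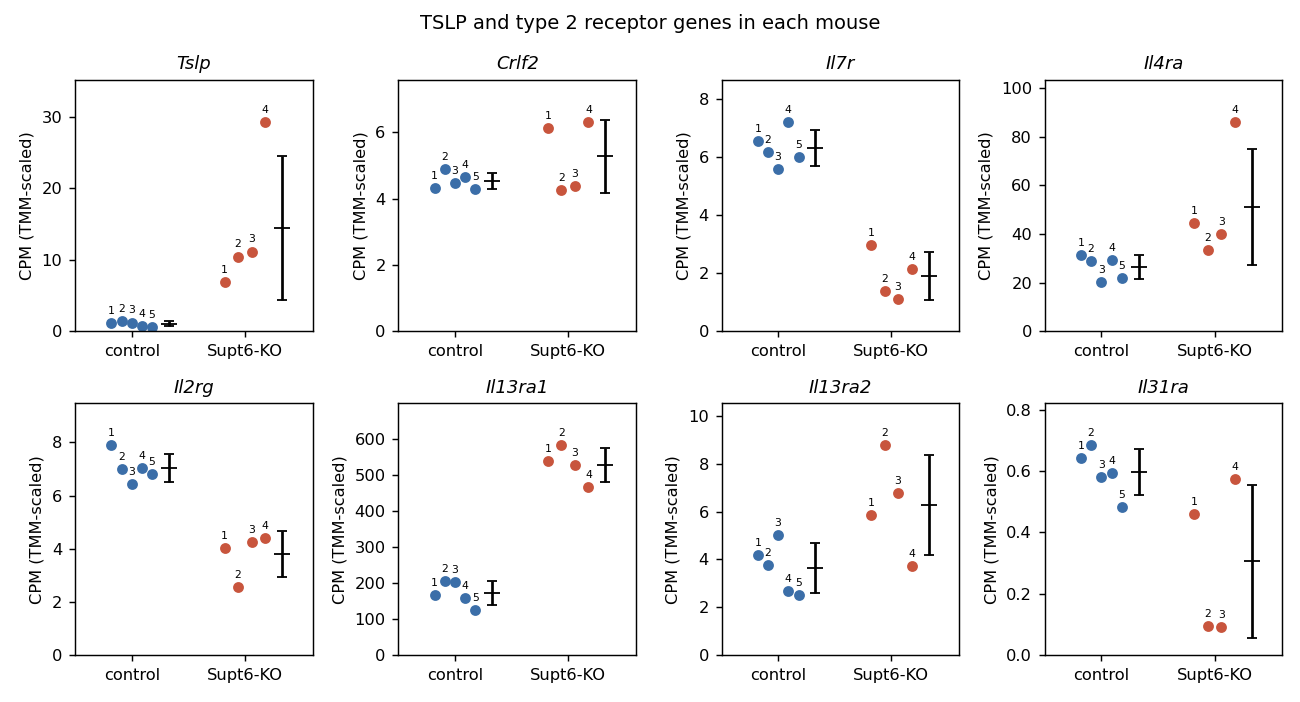
Each panel plots 1 gene in TMM-scaled CPM on a linear axis from 0, with 1 point per mouse numbered as in the text (blue, 5 controls; red, 4 *Supt6*-KO) and the group mean ± SD as a black bar. *Tslp*, *Il4ra* and *Il13ra1* separate upward, *Il7r* and *Il2rg* separate downward, and mouse 4 of the *Supt6*-KO group is the highest for *Tslp* at 29.3 CPM and for *Il4ra* at 86.2 CPM.

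*Tslp* (gene ID 53603, chr18:32815383-32819799, GRCm38) was scarce in control skin. It had 44, 54, 44, 28 and 23 estimated counts in controls 1 to 5 and 164, 218, 244 and 817 in *Supt6*-KO mice 1 to 4. In CPM these were 1.18, 1.48, 1.22, 0.757 and 0.586 in controls and 6.85, 10.5, 11.2 and 29.3 in *Supt6*-KO skin. The lowest *Supt6*-KO mouse stood above the highest control, and mouse 4 stood well above its 3 group mates. Over the counts of all genes compared, mouse 4 also stood apart from its group. Its chi-square per degree of freedom was 249, 416 and 311 against mice 1 to 3. Pairs among mice 1 to 3 gave 72.6, 67.7 and 31.8, and pairs of controls 20.2 to 120.5. The means of *Tslp* were 1.04 ± 0.36 CPM (SD, n = 5) and 14.5 ± 10.1 CPM (SD, n = 4), a 13.9-fold difference. The log2 fold change was 3.79 ± 0.43 (SE) with an edgeR adjusted p of 1.4e-05, larger than that of 98.2% of all genes tested. Without *Supt6*-KO mouse 4 it was 3.18, so that mouse added to the size of the change but not to its call.

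Of the chains of the TSLP receptor, *Il7r* was lower and *Crlf2* did not pass. *Crlf2* (gene ID 57914, chr5:109554709-109559128), the chain specific to TSLP, measured 4.33, 4.90, 4.46, 4.65 and 4.30 CPM in controls 1 to 5. In *Supt6*-KO mice 1 to 4 it measured 6.14, 4.27, 4.39 and 6.32 CPM. Mice 1 and 4 were above all controls, mouse 3 lay within the control range and mouse 2 was marginally below the lowest control. Its log2 fold change was 0.22 ± 0.17 (SE) with an edgeR adjusted p of 0.26, and its sign turned under library totals, at -0.44, and under a correction for gene length, at -0.45 with an adjusted p of 0.037.

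*Il7r* (gene ID 16197, chr15:9506159-9529941) encodes the chain shared by the TSLP and IL-7 receptors and is a standard marker of T cells and lymphoid precursors. It measured 6.55, 6.16, 5.59, 7.22 and 6.01 CPM in controls 1 to 5 and 2.97, 1.39, 1.10 and 2.16 CPM in *Supt6*-KO mice 1 to 4. The highest *Supt6*-KO mouse was below the lowest control. Mean levels were 6.31 ± 0.62 CPM (SD, n = 5) and 1.90 ± 0.84 CPM (SD, n = 4), a 3.31-fold lower level. This was a log2 fold change of -1.72 ± 0.27 (SE) with an edgeR adjusted p of 0.00014. In RNA from whole skin, fewer cells that express a gene and less RNA of it per cell cannot be told apart, here and for every gene below.

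Because both chains are needed, their counts were also compared within each library, where scaling cancels. *Crlf2* had 0.661, 0.796, 0.797, 0.644 and 0.716 counts per *Il7r* count in controls 1 to 5. In *Supt6*-KO mice 1 to 4 it had 2.07, 3.07, 4.00 and 2.93. In counts not divided by length, *Il7r* was thus the more counted of the pair in every control and *Crlf2* in every *Supt6*-KO mouse. In *Supt6*-KO mice this ratio was 4.04-fold higher, at an exact permutation p of 0.0159 and of 0.0222 after Benjamini-Hochberg adjustment over the 7 ratios examined. *Crlf2* has an effective length of 1203 bases and *Il7r* of 3348. Per kilobase of effective length *Crlf2* was already above *Il7r* in controls, at mean CPM of 3.76 and 1.88. From the fitted fold changes the ratio differed between the groups by 1.94 on the log2 scale, and by 1.08 (2.11-fold) with the correction for gene length.

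Of the receptor for IL-4, the alpha chain rose and the gamma chain fell. *Il4ra* (gene ID 16190, chr7:125552271-125579474), which binds IL-4 and is part of both receptor types, measured 31.3, 28.8, 20.3, 29.3 and 21.9 CPM in controls 1 to 5. It measured 44.5, 33.4, 40.1 and 86.2 CPM in *Supt6*-KO mice 1 to 4. The groups did not overlap, although *Supt6*-KO mouse 2 lay only just above the highest control and mouse 4 far above the rest. The means were 26.3 ± 4.89 CPM (SD, n = 5) and 51.1 ± 23.9 CPM (SD, n = 4). For *Il4ra* the log2 fold change was 0.96 ± 0.26 (SE) with an edgeR adjusted p of 0.0056. It was 0.58 without *Supt6*-KO mouse 4, with an adjusted p of 0.0063, and under library totals it was 0.33 with an adjusted p of 0.37.

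*Il2rg* (gene ID 16186, chrX:101264385-101268255) encodes the common gamma chain shared by the receptors for IL-2, IL-4, IL-7, IL-9, IL-15 and IL-21, and is carried by lymphocytes and other leukocytes. It measured 7.89, 7.01, 6.45, 7.03 and 6.80 CPM in controls 1 to 5 and 4.01, 2.54, 4.25 and 4.38 CPM in *Supt6*-KO mice 1 to 4. All *Supt6*-KO mice were below all controls. Mean levels were 7.04 ± 0.53 CPM (SD, n = 5) and 3.80 ± 0.85 CPM (SD, n = 4), with a log2 fold change of -0.89 ± 0.18 (SE) and an edgeR adjusted p of 0.0011.

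Within libraries, the counts of *Il4ra* per count of *Il2rg* moved from 3.97, 4.11, 3.16, 4.17 and 3.22 in controls to 11.1, 13.2, 9.43 and 19.7 in *Supt6*-KO mice. No value of either group fell in the range of the other. The ratio was 3.46-fold higher, with an exact permutation p of 0.0159 and an adjusted p of 0.0222. From the fitted fold changes the difference was 1.84 on the log2 scale, and 2.96 (7.77-fold) with the length correction.

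*Il13ra1* (gene ID 16164, chrX:36112108-36171262), the partner of *Il4ra* on keratinocytes and other non-lymphoid cells, was the most abundant of the 8 genes. It measured 168, 205, 201, 159 and 124 CPM in controls 1 to 5 and 538, 582, 526 and 467 CPM in *Supt6*-KO mice 1 to 4. The groups were far apart, and *Supt6*-KO mouse 4, the highest for *Tslp*, was here the lowest of its group. The means were 171 ± 33.3 CPM (SD, n = 5) and 528 ± 47.4 CPM (SD, n = 4), a 3.08-fold difference. The log2 fold change was 1.63 ± 0.16 (SE) with an edgeR adjusted p of 5.7e-06. In counts per *Il13ra1* count, *Il4ra* was at 0.187, 0.141, 0.101, 0.185 and 0.177 in controls and at 0.0828, 0.0575, 0.0762 and 0.185 in *Supt6*-KO mice. That ratio overlapped between the groups because of mouse 4 (log2 difference -0.77, exact permutation p 0.0952). Without that mouse the log2 difference was -1.11 with an exact permutation p of 0.0357. This is the smallest p possible with the mice left, and it was not adjusted over the ratios. With any other mouse left out the same test gave a p of 0.114 to 0.214.

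The decoy receptor changed less than the signalling chain it competes with. *Il13ra2* (gene ID 16165, chrX:147383478-147429192) measured 4.20, 3.78, 5.04, 2.68 and 2.50 CPM in controls 1 to 5 and 5.85, 8.78, 6.77 and 3.74 CPM in *Supt6*-KO mice 1 to 4. Mice 1 to 3 were above all controls, and mouse 4 was within the control range. The log2 fold change was 0.79 ± 0.28 (SE) with an edgeR adjusted p of 0.024. This call was lost under library totals (log2 fold change 0.053), under the length correction (0.62, adjusted p 0.067) and when control 4 (0.69), control 5 (0.68), *Supt6*-KO mouse 2 (0.57) or *Supt6*-KO mouse 3 (0.75) was left out. Per *Il13ra1* count, *Il13ra2* had 0.0251, 0.0185, 0.0250, 0.0169 and 0.0202 counts in controls and 0.0109, 0.0151, 0.0129 and 0.00801 in *Supt6*-KO mice. No *Supt6*-KO mouse reached the lowest control in this ratio, whose log2 difference was -0.87 with an exact permutation p of 0.0159 and an adjusted p of 0.0222. With the length correction the fitted difference was -1.34.

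*Il31ra* (gene ID 218624, chr13:112521931-112580732), the ligand-binding chain for IL-31, was near the limit of detection. It had 24, 25, 21, 22 and 19 estimated counts in controls 1 to 5 and 11, 2, 2 and 16 in *Supt6*-KO mice 1 to 4. Mice 2 and 3 were at or under 3 counts, the level that a count of 0 allows, and mouse 4 lay within the control range in CPM. The log2 fold change was -0.91 ± 0.47 (SE) with an edgeR adjusted p of 0.10. It was -1.42 with an adjusted p of 0.019 without *Supt6*-KO mouse 4, and -1.54 with an adjusted p of 0.019 under library totals. Its partner *Osmr*, which also serves oncostatin M, had a log2 fold change of -0.17 ± 0.18 (SE) with an edgeR adjusted p of 0.42, and of 0.43 with the length correction (adjusted p 0.055). The log2 ratio of *Il31ra* to *Osmr* was lower by 1.10 in *Supt6*-KO skin with overlap between the groups (exact permutation p 0.0317, adjusted p 0.037), and leaving out any 1 of 7 of the 9 mice took its p above 0.05.

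**Figure D2:**
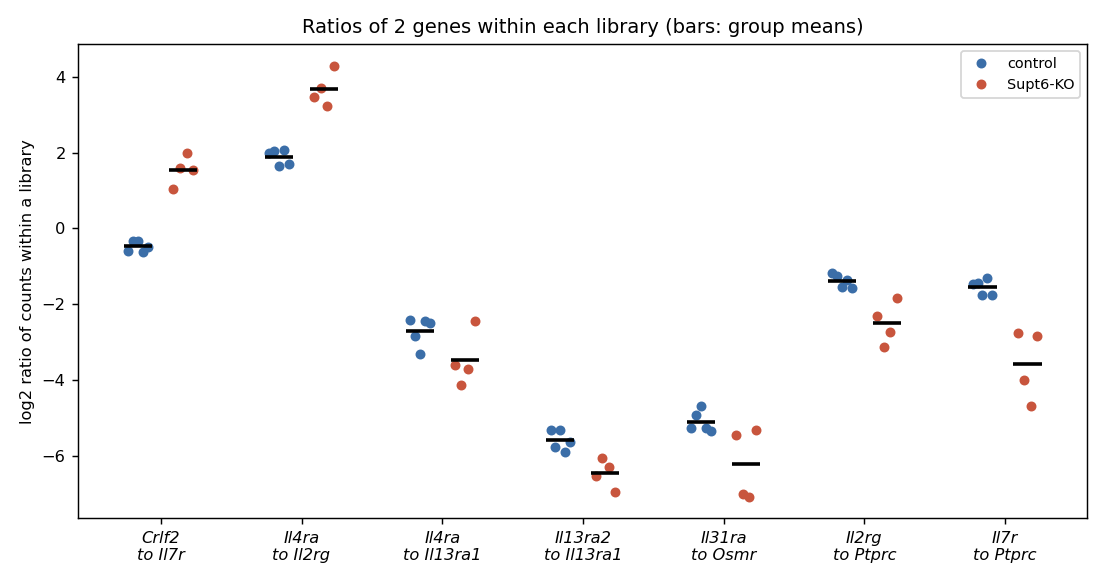
The vertical axis is the log2 ratio of the counts of 2 genes within 1 library (with 0.5 added to each count), with 1 point per mouse (blue, 5 controls; red, 4 *Supt6*-KO) and black bars for group means. The ratios of *Crlf2* to *Il7r* and *Il4ra* to *Il2rg* separate upward, those of *Il13ra2* to *Il13ra1* and of *Il2rg* and *Il7r* to *Ptprc* separate downward, and the other 2 overlap.

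For an order of levels between genes, CPM was divided by effective length in kilobases. In control skin the order of mean CPM per kilobase was *Il13ra1* at 43.4 ± 8.44, *Il4ra* at 4.71 ± 0.87, *Il2rg* at 4.54 ± 0.34, *Crlf2* at 3.76 ± 0.21, *Il7r* at 1.88 ± 0.18, *Il13ra2* at 1.65 ± 0.48, *Tslp* at 1.11 ± 0.39 and *Il31ra* at 0.15 ± 0.02 (SD, n = 5). *Il4ra* and *Il2rg*, *Il7r* and *Il13ra2*, and *Il13ra2* and *Tslp* differed from each other by no more than their SDs combined. In *Supt6*-KO skin *Il13ra1* stayed first at 134 ± 12.0, followed by *Tslp* at 15.4 ± 10.8 and *Il4ra* at 9.14 ± 4.27 (SD, n = 4). *Crlf2* stood at 4.39 ± 0.92, *Il13ra2* at 2.85 ± 0.95, *Il2rg* at 2.45 ± 0.55, *Il7r* at 0.57 ± 0.25 and *Il31ra* at 0.08 ± 0.06 CPM per kilobase. *Tslp* thus moved from the seventh to the second place, but from *Tslp* down to *Il2rg* no gene of *Supt6*-KO skin differed from its neighbour in the order by more than the SDs combined.

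The windows of 250 bases before a transcript start, from the RefSeq promoter table of GRCm38.p6, were found for the 7 receptor genes. For *Crlf2*, *Il7r* and *Il31ra* that start lies inside the gene interval given above, so the window overlaps the gene. The windows are printed here for the rising and the falling chains with non-overlapping groups. Each runs 5′ to 3′ on the gene's own strand, and capitals mark GGGCGG or its complement CCGCCC, the letters of an SP-type GC box, or TTCNNNGAA, the letters of a STAT-type palindrome. *Il13ra1* lies at chrX:36111858-36112107 (plus strand), *Il4ra* at chr7:125552021-125552270 (plus), *Il7r* at chr15:9529877-9530126 (minus) and *Il2rg* at chrX:101268256-101268505 (minus).
Il13ra1: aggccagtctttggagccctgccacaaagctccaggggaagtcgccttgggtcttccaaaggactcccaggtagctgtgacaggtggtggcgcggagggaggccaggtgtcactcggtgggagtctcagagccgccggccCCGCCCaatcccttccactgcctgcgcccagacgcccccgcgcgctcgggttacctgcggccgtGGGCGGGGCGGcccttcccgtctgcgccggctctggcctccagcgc
Il4ra: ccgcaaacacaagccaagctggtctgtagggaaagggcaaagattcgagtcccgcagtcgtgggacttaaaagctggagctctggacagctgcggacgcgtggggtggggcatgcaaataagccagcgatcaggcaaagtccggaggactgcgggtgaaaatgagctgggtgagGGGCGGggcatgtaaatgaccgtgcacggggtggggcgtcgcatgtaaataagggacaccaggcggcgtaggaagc
Il7r: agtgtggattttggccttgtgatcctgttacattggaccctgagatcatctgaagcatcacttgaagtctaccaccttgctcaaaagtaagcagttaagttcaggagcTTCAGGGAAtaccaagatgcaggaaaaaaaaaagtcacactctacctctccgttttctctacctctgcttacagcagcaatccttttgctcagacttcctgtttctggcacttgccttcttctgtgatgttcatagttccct
Il2rg: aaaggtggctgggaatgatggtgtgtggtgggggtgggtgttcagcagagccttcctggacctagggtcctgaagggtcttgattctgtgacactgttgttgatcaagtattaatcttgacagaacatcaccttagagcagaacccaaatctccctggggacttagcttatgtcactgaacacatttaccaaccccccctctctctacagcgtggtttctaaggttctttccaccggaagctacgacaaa

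The rising chains had windows rich in CpG and the falling chains did not. *Il13ra1* held 21 CpG and 70.8% GC and *Il4ra* 17 CpG and 59.6% GC, against 1 CpG and 44% GC in *Il7r* and 3 CpG and 49.2% GC in *Il2rg*. The remaining receptors did not keep to that split, since *Crlf2*, which was not called, had 24 CpG and *Il13ra2*, which was higher, had 1. The median GC content of all 32851 windows was 52.4%. GGGCGG on either strand occurred in 3 of the 7 receptor windows (*Crlf2*, *Il4ra* and *Il13ra1*) and in 32.7% of all windows. TTCNNNGAA occurred in 2 of 7 and in 7.02% of all windows. The matches lay at -142 to -134 in *Il7r* and -191 to -183 in *Il31ra*. These positions count from the transcript start that bounds each window, not from the end of the gene interval. The spelling with 4 free bases, TTCNNNNGAA, and the kappaB motif occurred in 0 of 7, against 5.85% and 7.25% of all windows. TATAAA was found in *Il13ra2* and in 12.4% of all windows. Such matches describe letters in a window and say nothing of binding.

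Fold changes followed gene length across the whole transcriptome. The median log2 fold change was 1.21 for the 1832 genes with an effective length under 1000 bases, 0.47 from 1000 to 2000 bases, -0.09 from 2000 to 4000 bases and -0.75 for the 5134 genes above 4000 bases. *Tslp*, at 937 bases, is in the class that rose, and after removal of the trend its log2 fold change was 2.91. *Il4ra*, at 5591 bases, and *Il13ra1*, at 3945 bases, rose against the trend, and their log2 fold changes became 1.61 and 1.96. *Il2rg*, at 1551 bases, fell against it and moved from -0.89 to -1.34, while *Il7r*, at 3348 bases, moved from -1.72 to -1.53. The part of this trend in the results was not tested beyond that correction.

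**Figure D3:**
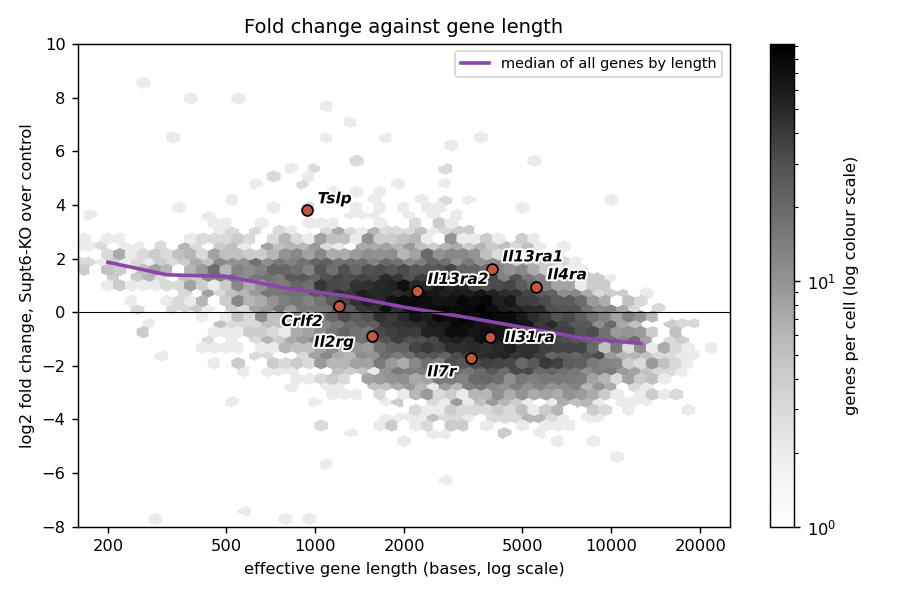
The horizontal axis is effective gene length in bases (log scale), the vertical axis the log2 fold change of *Supt6*-KO over control. Grey cells hold those of the 16189 genes with a known length that fall within the axes drawn. The purple line is the median by length and the red points are the 8 panel genes. The line falls from above 1 for short genes to below -0.7 for long ones, with *Tslp*, *Il13ra1* and *Il4ra* above it and *Il2rg*, *Il7r* and *Crlf2* below it.

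Scaling set how the changes were split between up and down. Without a composition factor the middle gene had a log2 fold change of -0.76, and 23.6% of the called genes were higher, against 48.1% with TMM. Relative to that median, *Tslp* stood at 3.95, *Il13ra1* at 1.68, *Il4ra* at 1.09, *Il13ra2* at 0.81, *Crlf2* at 0.32, *Il31ra* at -0.78, *Il2rg* at -0.80 and *Il7r* at -1.63 on the log2 scale. The order of the 8 genes was almost that found with TMM, in which *Il31ra* and *Il2rg* also lay within 0.1 of each other. A change of scaling moves all genes nearly alike, so this order could hardly differ and is no separate check.

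**Figure D4:**
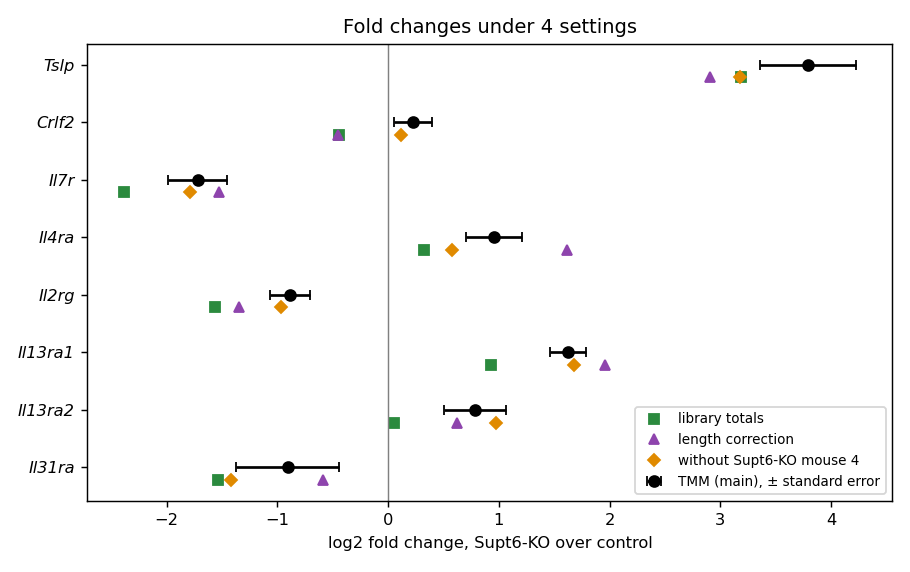
The horizontal axis is the log2 fold change of *Supt6*-KO over control for the 8 genes, with black points for TMM (bars, standard error) and coloured marks for library totals, the length correction and the fit without *Supt6*-KO mouse 4. *Tslp*, *Il4ra*, *Il13ra1* and *Il13ra2* stay right of 0 and *Il7r*, *Il2rg* and *Il31ra* left of it under all 4, and *Crlf2* lies on both sides.

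The cytokines that these receptors bind were mostly rare. Of 9 ligand genes listed beside TSLP, 7 had a row in the table, of which 2 were higher, 1 was lower and 4 did not pass. Among all genes 34.1% were higher and 36.8% lower, so these counts do not exceed the shares over all genes. *Il4*, the type 2 cytokine of T cells and basophils, had 0 counts in all 5 controls and 17, 19, 9 and 31 in *Supt6*-KO mice 1 to 4. Set against a floor of 3 counts per library, this was at least 9.76-fold higher (edgeR adjusted p 5.2e-05). *Il13* was at 0 to 7 counts in controls and 1 to 6 in *Supt6*-KO mice, and *Il5* at 1 to 4 and 1 to 2, so that no difference was detectable at this depth. *Il25* had 1 or 2 counts in each mouse. *Il9* and *Il31* were not analysed here.

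Of the other ligands *Osm*, encoding oncostatin M, had 3, 3, 3, 1 and 3 estimated counts in controls and 43, 51, 59 and 118 in *Supt6*-KO mice, a log2 fold change of 5.25 ± 0.36 (SE) with an edgeR adjusted p of 6.7e-07. The groups were far apart. *Il33*, an alarmin of epithelium and stroma like TSLP, had 2514, 2576, 2562, 2505 and 1836 counts in controls and 1817, 1003, 1666 and 11155 in *Supt6*-KO mice. In CPM, controls 1 to 5 were at 67.2, 70.5, 70.9, 67.8 and 46.8 and *Supt6*-KO mice 1 to 4 at 75.9, 48.1, 76.2 and 401. Mice 1 and 3 lay just above the controls, mouse 2 within their range and mouse 4, also the highest for *Tslp*, far above. The log2 fold change of 1.22 had an edgeR adjusted p of 0.053, and without mouse 4 it was 0.041. *Il7*, the other ligand of the chain encoded by *Il7r*, was lower with a log2 fold change of -0.56 (edgeR adjusted p 0.048), but 16 of 20 other settings did not call it, with values from -1.29 to -0.38.

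Among 12 partner and related receptors, 3 were higher, 3 were lower and 6 did not pass, beside 34.1% higher and 36.8% lower among all genes. *Il2rb*, the beta chain for IL-2 and IL-15 on T and NK cells, fell most, from 187, 237, 172, 177 and 187 counts in controls to 12, 11, 5 and 15 in *Supt6*-KO mice. Its log2 fold change was -3.50 ± 0.26 (SE) with an edgeR adjusted p of 9.9e-07. *Il17ra* and *Il1rap*, the shared chains for IL-17 and for the IL-1 family, were lower by smaller amounts (log2 fold changes -0.73 and -0.32), but with the length correction neither was called and *Il1rap* was at 0.19. *Il15ra* (1.30), *Il21r* (1.29, at 1 to 7 counts a mouse) and *Il1rl1* (0.89), the receptor for IL-33, were higher. *Il5ra* and *Il9r* were at 0 to 9 counts in each mouse. With library totals 1 was higher and 6 were lower, and with the length correction 4 were higher and 1 lower. The summed level of the 12 was 123 ± 5.11 CPM (SD, n = 5) in controls and 123 ± 6.13 CPM (SD, n = 4) in *Supt6*-KO skin.

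The kinases and STAT factors below these receptors were mostly lower with TMM. Of 12 JAK, STAT and SOCS genes 8 were lower, 2 higher and 2 did not pass, beside 36.8% lower among all genes. The median log2 fold change was -0.69. *Stat5a* (-1.65 ± 0.14 SE) and *Stat5b* (-1.27 ± 0.12), which act below IL-7 and TSLP receptors, and *Jak3* (-1.39 ± 0.25), the kinase bound to the common gamma chain, fell most. With the length correction they were at -1.30, -0.65 and -1.03, each still called. *Jak1*, the most abundant of the list and bound to *Il7r* and *Il4ra* chains, was at 163 ± 22.1 CPM (SD, n = 5) in controls and at 92.9 ± 10.4 CPM (SD, n = 4) in *Supt6*-KO skin, lower at -0.81 on the log2 scale but not called with the length correction (-0.14). *Stat6*, the main factor below IL-4 and IL-13, had a log2 fold change of -0.27 with an edgeR adjusted p of 0.14. *Socs1* (0.98) and *Socs3* (0.83), which encode feedback inhibitors, were higher, the first not with the length correction (0.19). Of the 12 genes 7 are over 4000 bases long. With the length correction 4 were lower and 2 higher, and with library totals 10 were lower and 0 higher. *Jak2* turned with the length correction, from lower at -0.31 to higher at 0.33 (edgeR adjusted p 0.012).

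**Figure D5:**
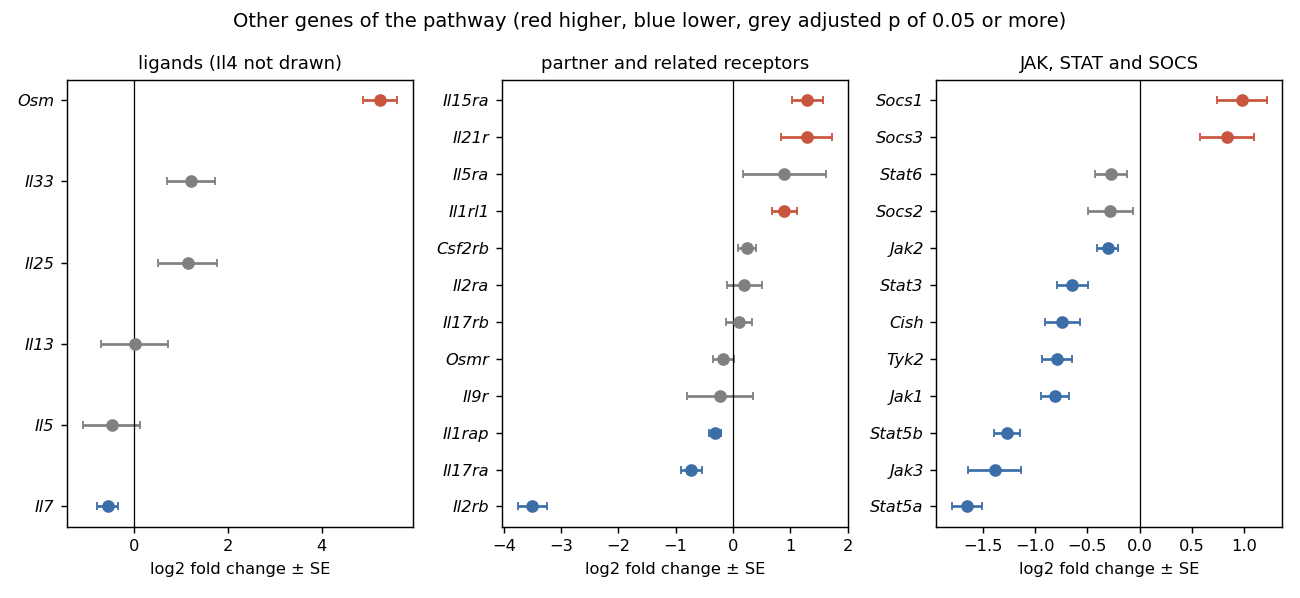
Each panel gives the log2 fold change of *Supt6*-KO over control (horizontal axis, bars are standard errors) for the ligands, the 12 partner and related receptors, and the 12 JAK, STAT and SOCS genes. Red marks genes that were higher, blue those that were lower and grey those with an adjusted p of 0.05 or more; *Il4*, with 0 counts in all controls, is not drawn, and the blue points fill most of the JAK and STAT panel.

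Genes that type 2 cytokines are known to induce did not move one way. Of 14 such genes 6 were higher, 4 lower and 4 did not pass, beside 34.1% higher and 36.8% lower among all genes, which is near these shares. With library totals or the length correction 4 were higher and 6 lower. *Chil3*, which encodes a chitinase-like protein of activated macrophages, had 5, 5, 10, 5 and 4 counts in controls and 903, 1230, 1448 and 1001 in *Supt6*-KO mice (log2 fold change 8.28). *Chil4* (7.04) and *Mrc1* (1.89) were also higher, and the division of reads between *Chil3* and its near copy *Chil4* is uncertain. In the other direction, *Retnla* had 550, 268, 398, 325 and 256 counts in controls and 26, 1, 5 and 8 in *Supt6*-KO mice (log2 fold change -4.52). *Tgm2* (-2.47), *Ear2* (-2.04) and *Alox15* (-1.32, not called in 11 of 19 other settings) were lower as well. *Postn*, the most abundant of the list, had a log2 fold change of -0.39 with an edgeR adjusted p of 0.12. *Fcer2a* was at 0 to 4 counts.

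The receptors that fell are carried by leukocytes, so leukocyte markers were set beside them. *Ptprc*, which encodes CD45 on all leukocytes, was at 18.3 ± 1.36 CPM (SD, n = 5) and 21.7 ± 5.41 CPM (SD, n = 4), with a log2 fold change of 0.24 and an edgeR adjusted p of 0.21. Its direction depended on scaling, at -0.49 under library totals and 0.91 with the length correction, both past the test. Per *Ptprc* count, *Il7r* had 0.365, 0.370, 0.296, 0.403 and 0.296 counts in controls and 0.148, 0.0617, 0.0385 and 0.139 in *Supt6*-KO mice. *Il2rg* had 0.440, 0.421, 0.341, 0.393 and 0.335 in controls and 0.200, 0.113, 0.149 and 0.282 in *Supt6*-KO mice. Both ratios were lower in every *Supt6*-KO mouse, with log2 differences of -2.02 and -1.12 and an exact permutation p of 0.0159 each (adjusted 0.0222). With the length correction the fitted differences were -2.44 and -2.26.

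Markers of single leukocyte types moved in both directions with TMM, beside 34.1% higher and 36.8% lower among all genes. Of 8 T cell genes 3 were lower and 2 higher, with library totals 5 and 2 and with the length correction 4 and 2. Their sum was 35.6 ± 4.47 CPM (SD, n = 5) in controls against 20.5 ± 2.94 CPM (SD, n = 4), with every *Supt6*-KO mouse below every control. *Cd3e* (-4.13), *Cd3g* (-2.65) and, less stably, *Cd3d* (-0.75, not called in 8 of 20 other settings), parts of the T cell receptor complex, were lower, *Cd5* (2.36) and *Cd8a* (1.88) higher, and *Cd4* was at 0.10 on the log2 scale with an edgeR adjusted p of 0.80. Of 8 dendritic and Langerhans cell genes 4 were lower and 2 higher, with library totals 5 and 0 and with the length correction 3 and 2. The lower genes were *Cd207* (-2.12), the langerin of Langerhans cells, *Flt3* (-1.76), *Cd209a* (-0.99) and *Itgax* (-0.85, not called in 6 of 20 other settings). The higher genes were *Ccr7* (1.50), the receptor of migrating dendritic cells, and *Xcr1* (1.41), neither of them called with library totals. *Epcam*, the most abundant of that list and also a keratinocyte gene, was at 0.39 with an edgeR adjusted p of 0.11. Of 6 genes listed for group 2 innate lymphoid cells 2 were lower (*Gata3*, *Rora*) and 2 higher (*Areg*, *Il1rl1*), but keratinocytes also express *Gata3*, *Rora* and *Areg*, and *Rora* was at -0.032 with the length correction. With library totals 4 of these 6 were lower and 1 higher.

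Myeloid and granulocyte markers were set beside the receptors as well. Of 8 macrophage genes 6 were higher and 2 lower, and of 7 neutrophil genes 6 were higher and 1 lower, beside 34.1% higher and 36.8% lower among all genes. *Fcgr1* (3.17), *Mrc1* (1.89), *C1qb* (1.48) and *C1qa* (1.08, but 0.15 and not called with the length correction) were the macrophage genes that rose most, and *Csf1r* (-1.83) and *Mertk* (-1.28) fell. *Retnlg* (6.59), *Ngp* (5.10) and *Mmp8* (5.07) were the neutrophil genes that rose most, and *Mpo* (-4.62) fell to 0 or 1 count a mouse. With library totals the macrophage genes were 3 higher and 2 lower and the neutrophil genes 5 and 1, and with the length correction the macrophage genes were 4 and 2. The neutrophil sum was 7.21 ± 1.83 CPM (SD, n = 5) and 47.8 ± 26.9 CPM (SD, n = 4). Of 4 eosinophil and basophil genes tested 2 were higher. *Mcpt8*, a basophil protease, had 0, 0, 0, 0 and 3 counts in controls and 67, 55, 38 and 107 in *Supt6*-KO mice, and *Ccr3*, the eotaxin receptor of eosinophils and basophils, 0, 0, 1, 0 and 0 in controls and 10, 2, 4 and 26 in *Supt6*-KO mice. The eosinophil granule genes *Epx* and *Prg2* were at 0 to 3 counts in every mouse and *Siglecf* at 2 to 7. Of 6 mast cell genes 1 was higher (*Cma1*, 0.59, but -0.34 with the length correction), 1 lower (*Kit*, -0.81, but -0.15 and not called with the length correction) and 4 did not pass. With library totals, and likewise with the length correction, 0 were higher and 3 lower. With the length correction these were *Mcpt4* (-1.21), the most abundant, *Cpa3* (-0.82) and *Tpsb2* (-0.78), at edgeR adjusted p of 0.00099, 0.03 and 0.012. The mast cell sums were 122 ± 41.0 CPM (SD, n = 5) and 127 ± 18.7 CPM (SD, n = 4). The part of any of these cell types in the receptor changes was not tested.

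Markers of the skin's other tissues were set beside the 34.1% higher and 36.8% lower among all genes. Of 8 keratinocyte genes 3 were higher (*Krt1*, *Krt6a*, *Krt16*) and 3 lower (*Krt5*, *Krt15*, *Trp63*), which is near these shares. *Krt10*, the most abundant, was at 0.19 with an edgeR adjusted p of 0.56. The sum of the 8 was 26098 ± 1199 CPM (SD, n = 5) in controls and 41565 ± 3404 CPM (SD, n = 4) in *Supt6*-KO skin. *Supt6*-KO mouse 4, the highest for *Tslp* and *Il33*, also had the highest *Krt16*, at 222694 counts against 30084 to 60289 in mice 1 to 3. With TMM no gene of the fibroblast, endothelial, adipocyte, skeletal muscle or cartilage lists was higher, and 4 of 6, 4 of 4, 4 of 4, 4 of 4 and 3 of 3 tested were lower. With library totals all 6 fibroblast genes were lower, and with the length correction these were 3 of 6 for fibroblasts and 2 of 4 for endothelium, and as before for the others. The cartilage genes *Acan*, *Col2a1* and *Col9a1* summed to 312 ± 144 CPM (SD, n = 5) in controls and 30.4 ± 2.73 CPM (SD, n = 4) in *Supt6*-KO skin, while *Matn1* was at 0 or 1 count. The skeletal muscle sum was 3145 ± 438 CPM (SD, n = 5) and 544 ± 81.2 CPM (SD, n = 4). RNA of both lists was thus present in the samples labelled ear and lower in the *Supt6*-KO group. The labels and the methods name different sites. Whether the groups were taken from the same site was not tested, and this bears on every fold change here. A different share of epidermis in the sampled piece and a change within the cells cannot be told apart here.

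Y-linked counts were lacking in 2 of the mice. Controls 1 and 3 had 3 and 2 counts over 4 Y-linked genes and the other 7 mice 5483 to 7345, and *Il13ra1*, *Il13ra2* and *Il2rg* are X-linked. Without these controls the log2 fold changes were 1.70 for *Il13ra1*, 1.07 for *Il13ra2* and -0.87 for *Il2rg*, and the 6 calls among the 8 genes held in edgeR.

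The genes whose pattern over the 9 mice came nearest to that of each panel gene were sought among 13564 genes with at least 1 CPM on average. The measure was the root mean square difference of log2 CPM after centring, with 0.5 added before the log. Nearest to *Tslp* were *Slco1a5* (0.21), an organic anion transporter, *Elf3* (0.30), an epithelial transcription factor, and *Ptgs2* (0.30), the inducible cyclooxygenase. For *Crlf2* they were *Dph1* (0.05), *Ercc3* (0.06) and *Copz1* (0.07). *Rarg* (0.11), a retinoic acid receptor, *Armc5* (0.11) and *Mvp* (0.14) came nearest to *Il7r*. *Itpk1* (0.15), *Asns* (0.15) and *Lsg1* (0.17) did so for *Il4ra*, and *Pnpla6* (0.09), *Crtc2* (0.11) and *Fermt3* (0.11) for *Il2rg*. *Psma6* (0.06), a proteasome subunit, *Rhod* (0.06) and *Dstn* (0.07) were nearest to *Il13ra1*, and *Osgep* (0.15), *Auh* (0.16) and *Rnf13* (0.16) to *Il13ra2*. *Il31ra* was below the level needed for this search.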

How the data were processed

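RNA sequencing of whole skin covered 5 control and 4 *Supt6*-KO mice. Paired reads were aligned by the authors to mm10 in Bowtie2 (2.3.4.3), and the authors deposited RSEM (1.3.1) estimated counts per gene, not normalized between samples. HISAT and DESeq2 1.4.5 are also named in the submitters' processing notes, and the annotation release is not given in the sources used here. Of the values 9.0% were not whole and were rounded. TPM values, deposited for 6 of the 9 mice, served only to recover effective gene lengths (16189 genes with at least 10 counts). Of 17943 genes, 17917 were matched to RefSeq, and 26 were not.

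edgeR 4.0.16 (R 4.3.3) was run on all 9 mice, by its quasi-likelihood test with TMM and no covariate, on the 16426 genes with 10 or more counts in sum. Calls used a Benjamini-Hochberg adjusted p under 0.05 over all genes tested. Standard errors of log2 fold changes come from the same fit. Ratios within libraries had 0.5 added to each count and were tested by two-sided exact permutation. The 8 genes, the pathway lists and the marker lists were chosen with earlier results of these data known. Genes named from a list are those past the test with the largest change, up to 4 a direction, its most abundant gene and any gene at or near 0. Not every gene that this rule takes is named, least of all from the lists of stromal tissues. The 3 genes nearest to each panel gene are also named. Genes given a value outside this rule were chosen after their values were seen.

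Other settings tried were library totals or upper-quartile factors in place of TMM, DESeq2 1.42.0, other filters, a replicate block, a correction for length, testing against a 2-fold change and leaving out each mouse. A term for Y-linked counts, removal of the controls without them, and removal of the 50 most abundant genes from library sizes were chosen after seeing the data. Depth was 29627341 to 30967107 counts a mouse, and floors of 3 counts cover counting error only. The tests were tried on simulated data, and no result of that trial is used here. Protein sequences were not used here, and the results for 1 gene of the type 2 response list and for the B cell list are not reported. Summaries used scipy 1.17.1, pandas 2.3.3 and Python 3.11.15.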

Additional observations from a re-analysis of the deposited data

Results flagged for a closer look

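In 4 of 74 groups of mice examined, 1 animal stood far from the rest of its group, and chance alone would give 3.7 such groups. For the summed level of the 7 ligand genes, control 5 had 50.77 CPM where the control median was 70.34 CPM. For the same sum, *Supt6*-KO mouse 4 had 407.5 CPM where the *Supt6*-KO median was 81.37 CPM, and *Il33* gave most of it. For the 12 partner and related receptors, *Supt6*-KO mouse 4 had a sum of 113.7 CPM against a median of 125.5 CPM. For the 6 mast cell genes, *Supt6*-KO mouse 2 had 99.69 CPM against a median of 134.7 CPM.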

How the results depend on the processing

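*Supt6*, *Tslp*, *Il7r* and *Il13ra1* kept their direction and their call under all 20 alternatives, with log2 fold changes of -2.26 to -0.75, 2.91 to 4.03, -2.39 to -1.53 and 0.93 to 1.96. Under library totals *Crlf2* was at -0.44, *Il4ra* at 0.33 and *Il13ra2* at 0.053, the last 2 no longer called, *Il31ra* at -1.54, now called, and 2771 genes were higher. With the length correction *Crlf2* was at -0.45 and now called lower (edgeR adjusted p 0.037), and *Il13ra2*, at 0.62, was no longer called. Tested against a 2-fold change, *Il4ra* (0.96), *Il13ra2* (0.79) and *Il2rg* (-0.89) were not called, which left 3 of the 8 genes called, 2271 genes higher and 2770 lower. With each mouse left out in turn, *Il13ra2* ranged from 0.57 to 0.97, *Il31ra* from -1.42 to -0.63, the log2 ratio of *Il4ra* to *Il13ra1* from -1.11 to -0.55 and that of *Il31ra* to *Osmr* from -1.40 to -0.81. *Il31ra* could not be tested with at least 10 counts required in every mouse. Where the cause of a lost or gained call is not the alternative's own construction, it was not tested.

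Deviations from the group means correlated at -0.011, 0.243, 0.222 and 0.059 between same-numbered mice. Their mean was 0.128, against -0.023 for mice of other numbers. In the main fit the numbers were not read as pairs, and whether they mark a shared factor was not tested further. With the replicate block the log2 fold changes were 3.42 for *Tslp*, 0.19 for *Crlf2*, -1.81 for *Il7r*, 0.82 for *Il4ra*, 1.53 for *Il13ra1*, 0.65 for *Il13ra2*, -1.11 for *Il31ra*, -0.92 for *Il2rg* and -1.46 for *Supt6*, and 5271 genes were higher and 5803 lower.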
